A study of Mus musculus with 6 samples.

Results

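The microRNAs (miRNAs) described here are mmu-miR-10a-5p, mmu-miR-10b-5p, mmu-miR-196a-5p and mmu-miR-196b-5p, mature 5p products of miRNA genes that lie inside the Hox gene clusters. The prefix mmu, for mouse, is left out below. They were selected by name, with earlier results of these data known, and they are 4 of the 1247 mouse miRNAs on the array. They were measured in kidney of male C57BL/6 mice, a standard inbred laboratory strain, at 2 months of age (young, 3 arrays) and at 20 months of age (aged, 3 arrays). No treatment, mutant allele or transgene is named for either group, so age is the single difference that the labels give. Total RNA that kept its small RNA fraction was labelled with the dye Cy3, and 1 preparation was hybridised per Agilent miRNA array, in a single colour. The labels call the preparations of a group independent without tying them to animals, so a p-value here reflects how far preparations differ, and part of that may be technical.

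Hox genes encode transcription factors that give cells along the head-to-tail axis of the embryo their position, and their order along the chromosome follows the order of the body regions in which they act. The miR-10 genes sit near the group 4 Hox genes of their clusters, and the miR-196 genes sit in the more posterior part, beside the group 9 Hox genes. Both families are transcribed with the surrounding cluster and are known to repress Hox transcripts, Hoxb8 being the classical target of miR-196. The kidney arises from intermediate mesoderm of the trunk, and adult kidney cells keep part of the Hox pattern of that origin. The comparison of ages asks whether the level of these positional miRNAs differs between youth and old age.

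The mature sequences are shown because the members of each family share a seed and differ by a single base outside it, so each probe has to tell near-identical molecules apart. They are from RefSeq (GRCm38.p6), where all 4 names matched, written 5′ to 3′ with the seed, bases 2 to 8, in capitals.

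miR-10a-5p: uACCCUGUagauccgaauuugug

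miR-10b-5p: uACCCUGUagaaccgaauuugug

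miR-196a-5p: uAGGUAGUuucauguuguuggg

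miR-196b-5p: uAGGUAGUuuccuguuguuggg

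Counted from 1 at the 5′ end, the substitution from miR-10a-5p to miR-10b-5p is U12A, and the other 22 of 23 bases are the same. The substitution from miR-196a-5p to miR-196b-5p is A12C, and the other 21 of 22 bases are the same. Both differences therefore fall at position 12, outside the seed. Among 1679 mature mouse sequences in the RefSeq table, the seed of miR-10 was found in 2, miR-10a-5p and miR-10b-5p, and the seed of miR-196 in 2, miR-196a-5p and miR-196b-5p. The probe sequences were not used here, and signal on a probe of one family member that comes from the other member was not tested.

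On GRCm38.p6, miR-10a-5p lies at chr11:96317186-96317208 on the plus strand, inside the annotated span of Hoxb3, with Hoxb5 and Hoxb4 as the nearest Hox genes outside it. miR-10b-5p lies at chr2:74726074-74726096 on the plus strand, inside the overlapping spans of Hoxd3 and Hoxd4. miR-196b-5p lies at chr6:52230129-52230150 on the minus strand, between Hoxa9 and Hoxa10. miR-196a-5p is made from 2 hairpins, Mir196a-1 at chr11:96265187-96265208 between Hoxb13 and Hoxb9, and Mir196a-2 at chr15:102973365-102973386 between Hoxc10 and Hoxc9, both on the plus strand. These coordinates are those of the mature sequences. The 2 hairpins are shown with miR-196a-5p in capitals, since the array reads their common product and cannot say which locus made it.

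Mir196a-1: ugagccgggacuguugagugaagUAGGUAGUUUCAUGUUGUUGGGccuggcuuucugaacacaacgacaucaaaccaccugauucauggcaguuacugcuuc

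Mir196a-2: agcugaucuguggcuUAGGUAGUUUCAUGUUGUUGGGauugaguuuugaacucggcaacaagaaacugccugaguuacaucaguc

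Over the whole series, 177 to 209 miRNAs per array were well above background, and no spot was saturated (0 over all arrays). The 6 kidney markers (miR-192-5p, miR-194-5p, miR-204-5p, miR-30a-5p, miR-30c-5p and miR-200b-3p) were well above background on every array. Of 7 markers of other organs, 5 were not well above background on any array, among them the liver miRNA miR-122-5p. The other two were the muscle miRNA miR-1a-3p, detected on 2 young and 2 aged arrays, and the neuronal miRNA miR-124-3p, detected on 3 aged arrays and no young array. All arrays were on 1 slide, the young arrays and aged array 1 in slide row 1 and aged arrays 2 and 3 in slide row 2. The number of arrays limits the precision.

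All 4 Hox cluster miRNAs were well above background on all 6 arrays. A level below is the log2 of the background-subtracted intensity, summed over the probes of a miRNA, after each array was divided by the 75th percentile of its 315 probes detected throughout. A level of 0 thus equals that percentile. Levels are compared for 1 miRNA between arrays and not between miRNAs, because probes differ in how brightly they report the same amount.

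miR-10a-5p, encoded in the Hoxb cluster, had levels of 1.81, 1.65 and 1.86 on young arrays 1 to 3 and of 1.59, 1.71 and 1.72 on aged arrays 1 to 3. The aged levels sat in the lower part of the young range, and aged array 1 was below every young array. On young arrays 1 to 3 its raw intensities were 4943, 3764 and 4329, and on aged arrays 1 to 3 they were 3535, 6719 and 4217. The highest raw intensity was thus on aged array 2, which was the brightest array as a whole, with a 75th percentile of 2054 against 1171 to 1415 on the others. Negative control spots had medians of 2.36 to 3.34 intensity units per array. Their SD was 132.6 on aged array 1 (mean 6.85) and 6.85 to 9.66 on the other arrays, and the part of this in the low levels on aged array 1 was not tested.

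miR-10b-5p, its counterpart in the Hoxd cluster, had levels of 1.50, 1.39 and 1.61 on young arrays 1 to 3. On aged arrays 1 to 3 its levels were 1.26, 1.36 and 1.40. The groups touched at a single point, since aged array 3 lay just above young array 2 and the other aged arrays lay below all young ones.

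miR-196a-5p, made from the Hoxb and Hoxc clusters, had levels of -0.25, -0.35 and -0.13 on young arrays 1 to 3 and of -0.44, -0.16 and -0.23 on aged arrays 1 to 3. Here the groups were interleaved: aged arrays 2 and 3 were above young arrays 1 and 2, and aged array 1 was the lowest of all.

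miR-196b-5p, from the Hoxa cluster, had levels of -1.84, -1.98 and -1.66 on young arrays 1 to 3. On aged arrays 1 to 3 its levels were -2.14, -2.02 and -1.89. The lowest levels were on aged arrays 1 and 2, and aged array 3 fell between young arrays 1 and 2. Its raw intensities were 395.6, 304.6 and 376.9 on young arrays 1 to 3 and 265.1, 506.8 and 345.2 on aged arrays 1 to 3.

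The 4 miRNAs shared their extremes: young array 3 gave the highest level and aged array 1 the lowest level of each of them. Other tested miRNAs had the same extremes, for example let-7i-5p, miR-25-3p and miR-200b-3p. The share over all tested miRNAs was not counted, so the pattern is not read as particular to the 4. The range over the 6 arrays was 0.27 for miR-10a-5p, 0.35 for miR-10b-5p, 0.32 for miR-196a-5p and 0.48 for miR-196b-5p (log2 levels).

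**Figure D1:**
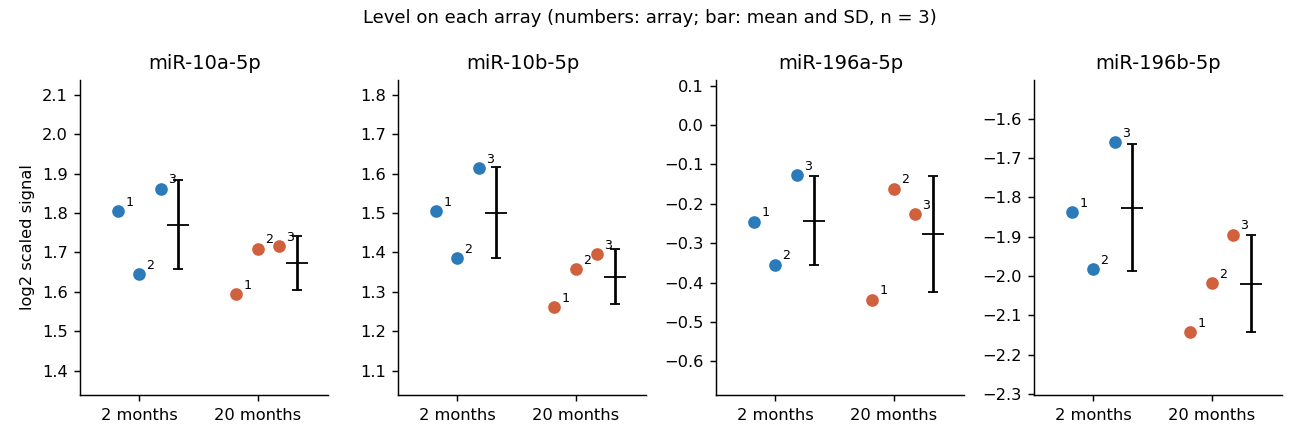
Log2 scaled signal (vertical axis) of the 4 Hox cluster miRNAs on each array at 2 and 20 months; numbers are arrays, and the bar beside each group is its mean and SD (n = 3), with an axis span of the same size but another offset in each panel. Young array 3 is the highest and aged array 1 the lowest point in every panel, and the groups overlap in all 4.

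The repeated spots of a probe gave a tighter reading than the repeated arrays. miR-10a-5p, miR-10b-5p and miR-196b-5p each had 2 probes of 20 spots, and miR-196a-5p had 4 probes of 10 spots. The standard error from spot to spot, as the median over arrays, was 0.014 to 0.023 (log2) for the probes of the miR-10 family and 0.024 to 0.047 for those of the miR-196 family. The SD between arrays of a group was 0.069 to 0.16 over the 4 miRNAs. The spread that the comparison of ages has to exceed therefore lies between arrays and not within them.

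The probes of 1 miRNA gave similar age differences, apart from 1 probe of miR-196a-5p. The differences (log2, aged minus young, n = 3 per group, no test at probe level) were -0.077 and -0.10 for the probes of miR-10a-5p and -0.19 and -0.15 for those of miR-10b-5p. For miR-196b-5p they were -0.20 and -0.19. The 4 probes of miR-196a-5p gave -0.11, -0.026, -0.020 and -0.039, and the first, which stands apart, is the dimmest of the 4. All 10 probes had a lower aged mean with this scaling, and the sign depends on the scaling as described below for the miRNAs.

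**Figure D2:**
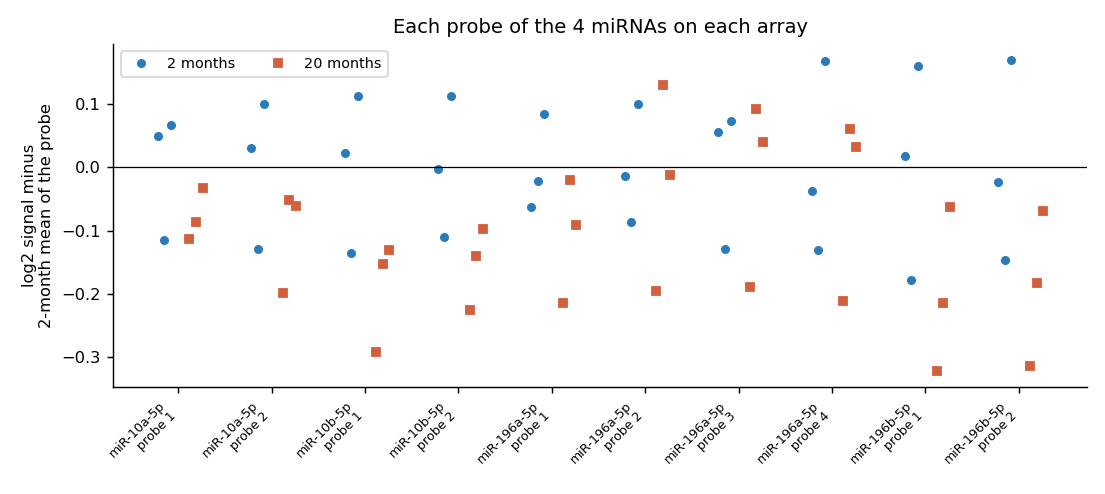
Log2 signal of each of the 10 probes of the 4 miRNAs, less the mean of that probe over the young arrays (vertical axis), with circles for the 3 young arrays and squares for the 3 aged arrays. The aged points all lie below 0 for miR-10a-5p, miR-10b-5p and miR-196b-5p and on both sides of it for 3 of the 4 probes of miR-196a-5p.

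None of the 4 miRNAs passed the test between ages. Aged and young levels were compared over all 193 miRNAs detected throughout at least 1 group, and 0 of the 4 passed the threshold of 0.05 (limma, Benjamini-Hochberg adjusted), where 7.77% of the tested miRNAs did (4.15% higher and 3.63% lower in aged kidney). At an unadjusted p under 0.05, 0 of the 4 passed by limma, where 25.4% of the tested miRNAs did. In 0 of the 4 were the groups free of overlap, where 30.6% of the tested miRNAs had groups that did not overlap (10.4% with every aged array above every young array and 20.2% with every aged array below).

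miR-10a-5p stood at 1.77 ± 0.11 (mean ± SD, log2 level, n = 3) in young and 1.67 ± 0.069 in aged kidney. The difference was -0.097 ± 0.088 (log2, aged minus young, ± limma standard error), with a limma adjusted p of 0.492 and a 95% interval of -0.31 to 0.11. As an aged over young ratio the interval runs from 0.807 to 1.08. All 3 aged arrays were below the young mean.

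miR-10b-5p stood at 1.50 ± 0.11 in young and 1.34 ± 0.070 in aged kidney (log2 level, n = 3 each). Its difference was -0.16 ± 0.088 (limma adjusted p = 0.292), and its 95% interval of -0.38 to 0.051 corresponds to aged over young ratios from 0.77 to 1.04. All 3 aged arrays were again below the young mean.

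miR-196a-5p stood at -0.24 ± 0.11 in young and -0.28 ± 0.15 in aged kidney (log2 level, n = 3 each). Its difference of -0.035 ± 0.11 was the smallest of the 4 with this scaling (limma adjusted p = 0.85). The 95% interval was -0.29 to 0.22, or ratios from 0.817 to 1.17. Of the 3 aged arrays 1 was below the young mean and 2 were above it.

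miR-196b-5p stood at -1.83 ± 0.16 in young and -2.02 ± 0.12 in aged kidney (log2 level, n = 3 each). Its difference of -0.19 ± 0.11 was the largest of the 4 with this scaling (limma adjusted p = 0.328). The 95% interval was -0.46 to 0.081, or ratios from 0.725 to 1.06. All 3 aged arrays were below the young mean. None of the 4 differences was thus larger than the spread between arrays allows for in this test.

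Against the other tested miRNAs these differences were ordinary. The median difference of the 193 tested miRNAs was -0.083, with quartiles of -0.28 and 0.06, and the median of the 4 Hox cluster miRNAs was -0.13. Of the 193, 128 had a lower aged mean. The absolute difference of miR-196b-5p exceeded that of 54.2% of the other tested miRNAs, that of miR-10b-5p 47.9%, that of miR-10a-5p 34.9% and that of miR-196a-5p 12.5%. These percentages rank the distance from 0 with the main scaling, and the order of the 4 can change with it. When all probes set the 75th percentile, miR-196a-5p had the largest difference (0.38) and miR-196b-5p the smallest (0.22).

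**Figure D3:**
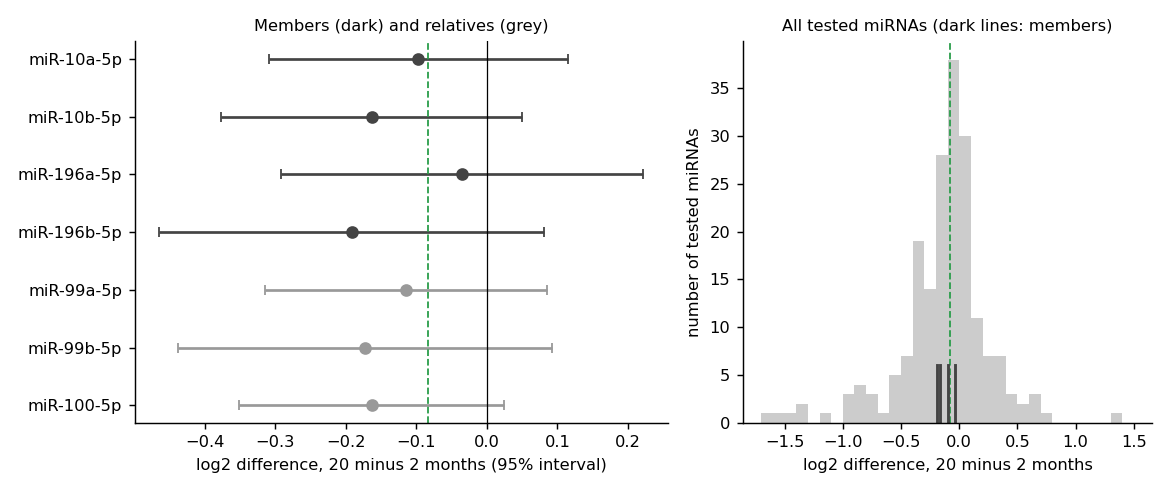
Left, the log2 difference between 20 and 2 months with its 95% limma interval for the 4 Hox cluster miRNAs (dark) and 3 sequence relatives (grey); right, the number of tested miRNAs at each log2 difference, with the 4 as dark lines. Every interval on the left spans 0 (solid line), and the 4 miRNAs sit close to the median of all 193, which is -0.083 (dashed line).

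The sign of the differences depended on how the arrays were scaled to each other. When all probes set the 75th percentile, the differences were 0.32 for miR-10a-5p, 0.25 for miR-10b-5p, 0.38 for miR-196a-5p and 0.22 for miR-196b-5p, and the median of all tested miRNAs moved to 0.33. Without scaling they were 0.10, 0.039, 0.17 and 0.010 in the same order, around a median of 0.12. In the authors' deposited values miR-10a-5p stood at 0.018, miR-10b-5p at -0.048, miR-196a-5p at 0.080 and miR-196b-5p at -0.077 (log2, aged minus young), around a median of 0.029. A scaling that moves all miRNAs of an array alike cannot change a difference less the median of all tested miRNAs, so several settings give the same value there by construction. Over the settings, the difference less that median ran from -0.18 to -0.054 for miR-10b-5p and from -0.26 to -0.061 for miR-196b-5p. It ran from -0.12 to 0.024 for miR-10a-5p and from -0.14 to 0.12 for miR-196a-5p. The low end of each range came from the comparisons by slide row, which rest on aged array 1. Apart from those, the lowest value was -0.041 for miR-196a-5p, without aged array 2. For miR-10b-5p, miR-196b-5p and miR-10a-5p it was -0.16, -0.19 and -0.097, without a detection filter. In that setting the median is taken over all miRNAs on the array. Apart from the comparisons by slide row, the lowest limma adjusted p of any of the 4 was 0.206, for miR-10b-5p with outlier spots kept.

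**Figure D4:**
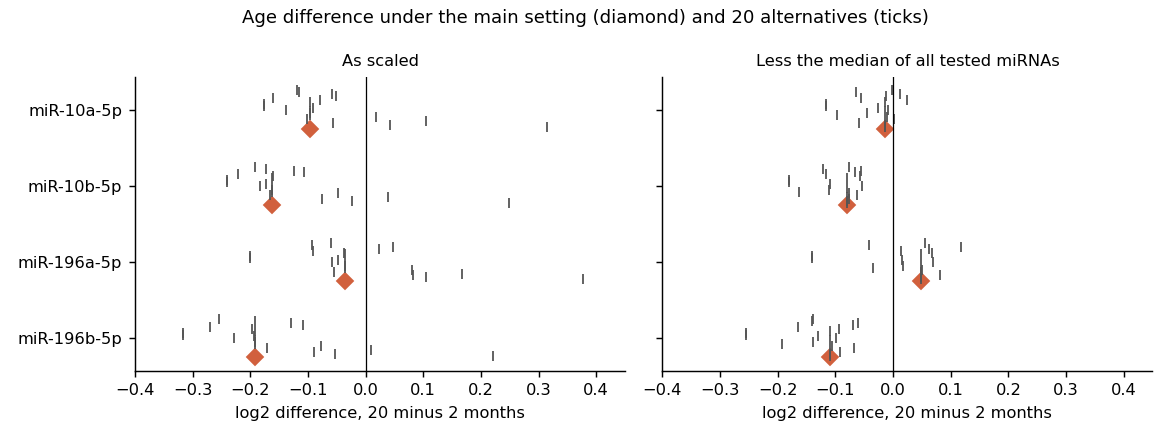
Log2 difference between 20 and 2 months of the 4 miRNAs under the main setting (diamonds) and 20 alternatives (ticks), as scaled (left) and less the median of all tested miRNAs (right). The values on the left fall on both sides of 0 for each miRNA; on the right, scalings that move a whole array coincide by construction, and the spread of 1 miRNA comes from the other settings.

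With slide row as a block, the differences were -0.18 ± 0.13 for miR-10a-5p, -0.24 ± 0.13 for miR-10b-5p, -0.20 ± 0.13 for miR-196a-5p and -0.32 ± 0.15 for miR-196b-5p. Slide row 1 alone gave the same differences, because aged array 1 is the single aged array there and decides both, so no p is given for either. Row 2 holds aged arrays alone and gives no comparison. The single aged array that shares a row with the young ones is also the lowest of all 6 for each of the 4 miRNAs. Without aged array 1 the differences were -0.058, -0.12, 0.048 and -0.13, and without young array 3 they were -0.052, -0.11, 0.023 and -0.11, in the order miR-10a-5p, miR-10b-5p, miR-196a-5p and miR-196b-5p.

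The ratio of 2 miRNAs on the same array does not depend on a factor common to that array, so the 6 pairs among the 4 miRNAs were compared between ages. The level of such a ratio carries no meaning of its own, since it sets 1 probe set against another, and only its change is read. With 3 arrays per group the exact two-sided permutation test cannot give a p below 0.10, so no pair could pass 0.05. In 3 of the 6 pairs the groups did not overlap, where 39.6% of all 18528 pairs of tested miRNAs did not, so this count is close to the background.

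The largest shift was within the miR-196 family. The log2 ratio of miR-196a-5p over miR-196b-5p was 1.59, 1.63 and 1.53 on young arrays 1 to 3 and 1.70, 1.86 and 1.67 on aged arrays 1 to 3. Every aged array lay above every young one, by the most on aged array 2. The difference was 0.16 (1.11-fold), with an exact permutation p of 0.10 (two-sided), the smallest the design allows, and 0.20 adjusted over the 6 pairs.

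Within the miR-10 family the ratio was steadier. The log2 ratio of miR-10a-5p over miR-10b-5p was 0.30, 0.26 and 0.25 on young arrays 1 to 3 and 0.33, 0.35 and 0.32 on aged arrays 1 to 3. Every aged array was again higher, by 0.066 in the mean (1.05-fold, exact permutation p = 0.10, adjusted p = 0.20). The SD of this ratio over the 6 arrays was 0.041, and 0.54% of all pairs of tested miRNAs had a smaller one, the median over pairs being 0.27. That set of pairs includes dim miRNAs. A small SD was not particular to this family. It was 0.051 for miR-10b-5p over miR-196b-5p (1.25% of all pairs smaller) and 0.066 for miR-10a-5p over miR-196a-5p (3.07%). The widest of the 6 was miR-196a-5p over miR-196b-5p, at 0.11 (12.9%). Signal that comes from the other member of a family was not tested, and its part in these SDs is not known.

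The third pair without overlap joined the families. The log2 ratio of miR-10b-5p over miR-196a-5p was 1.75, 1.74 and 1.74 on young arrays 1 to 3 and 1.70, 1.52 and 1.62 on aged arrays 1 to 3. The aged arrays were lower by 0.13 in the mean (1.09-fold, exact permutation p = 0.10, adjusted p = 0.20). In the other 3 pairs the groups overlapped, with differences of -0.062 for miR-10a-5p over miR-196a-5p (exact permutation p = 0.30), 0.095 for miR-10a-5p over miR-196b-5p (exact permutation p = 0.30) and 0.029 for miR-10b-5p over miR-196b-5p (exact permutation p = 0.50). The signs of all 6 differences were the same in the 12 alternatives run for them, and their sizes were not. The difference of miR-10a-5p over miR-10b-5p fell to 0.018 with quantile normalization, where the groups overlapped. The groups of miR-196a-5p over miR-196b-5p overlapped with the mean log2 over probes (0.15), and its difference was 0.099 without aged array 2. Without aged array 2 the difference of miR-10b-5p over miR-196a-5p was -0.080. The ranges over the alternatives were -0.14 to -0.023 for miR-10a-5p over miR-196a-5p, 0.033 to 0.14 for miR-10a-5p over miR-196b-5p and 0.0019 to 0.062 for miR-10b-5p over miR-196b-5p.

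**Figure D5:**
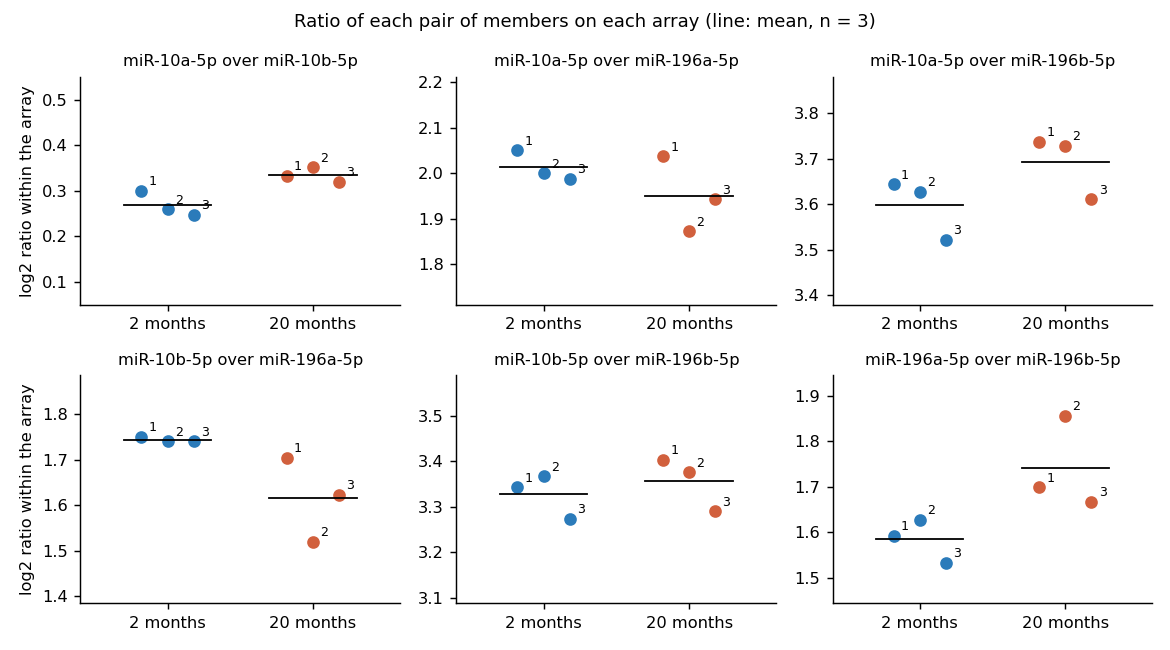
Log2 ratio within each array (vertical axis) for the 6 pairs of the 4 miRNAs at 2 and 20 months; numbers are arrays, lines are means (n = 3), and every panel spans the same height. Ages separate without overlap for miR-10a-5p over miR-10b-5p, miR-10b-5p over miR-196a-5p and miR-196a-5p over miR-196b-5p.

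Over the 6 arrays miR-10b-5p and miR-196b-5p were each other's closest match among all tested miRNAs (Pearson r = 0.982, Spearman rho = 1, as a description over 6 arrays that share their scaling). For miR-10a-5p the closest match was miR-10b-5p (r = 0.954), and miR-196a-5p stood apart from the other three, with r from 0.716 to 0.833. Outside the 4, the miRNAs whose levels followed miR-10a-5p most closely were miR-429-3p (r = 0.934), let-7i-5p (0.926) and miR-25-3p (0.926). For miR-10b-5p they were miR-200c-3p (r = 0.953), miR-322-5p (0.95) and miR-200b-3p (0.935). For miR-196a-5p they were miR-140-5p (r = 0.977), miR-30e-5p (0.976) and miR-128-3p (0.955), and for miR-196b-5p they were miR-25-3p (r = 0.971), miR-99a-5p (0.964) and miR-30e-3p (0.958). None of these 11 miRNAs passed the threshold between ages (limma adjusted p from 0.0864 to 0.961), where 7.77% of all tested miRNAs did. Among the 11, miR-200c-3p and miR-322-5p (2 miRNAs) had an unadjusted limma p under 0.05, where 25.4% of all tested miRNAs did.

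The opposite arms of the same hairpins were barely visible. The further Hox cluster list held 7 miRNAs: miR-10a-3p, miR-10b-3p, miR-196a-1-3p, miR-196a-2-3p, miR-196b-3p and both arms of miR-615, which lies in the Hoxc cluster. Of the 7, 6 were not well above background on any array, and 0 could be tested. miR-10a-3p was well above background on aged array 2 alone, and the scanner software's own detection call marked it as present on all 6 arrays. Its hairpin is shown with this arm in capitals, at chr11:96317227-96317248 on the plus strand.

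Mir10a: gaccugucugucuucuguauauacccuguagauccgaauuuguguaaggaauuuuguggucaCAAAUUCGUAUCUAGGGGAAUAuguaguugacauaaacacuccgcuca

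The raw intensities of miR-10a-3p, summed over 4 probes, were 85.1, 79.3 and 68.8 on young arrays 1 to 3 and 51.5, 109.1 and 78.5 on aged arrays 1 to 3. The ages overlapped, and since most of these values lie near the detection limit no fold is given. miR-10b-3p gave 21.5 to 28.2 intensity units in young and 16.7 to 42.7 in aged kidney, summed over 4 probes, all not well above background. Any level of the remaining arms below the detection limit was not detectable with these arrays.

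The miR-99 and miR-100 miRNAs are related to miR-10 in sequence and lie outside the Hox clusters. They are shown with the longest run shared with a miR-10 sequence in capitals, which for miR-100-5p and miR-99a-5p is shared with miR-10a-5p and for miR-99b-5p with miR-10b-5p.

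miR-100-5p: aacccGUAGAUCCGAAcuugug

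miR-99a-5p: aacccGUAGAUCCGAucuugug

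miR-99b-5p: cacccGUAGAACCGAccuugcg

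The shared run is 11 bases in miR-100-5p and 10 in the other two, and it begins at base 6 there and at base 7 in miR-10, so the seeds differ. Of these 3 miRNAs 0 passed the threshold by limma, and 0 had an unadjusted p under 0.05. The shares over all tested miRNAs were 7.77% and 25.4%, so counts of 0 among 3 miRNAs are not read as stability. Their differences were -0.11 ± 0.083 for miR-99a-5p, -0.17 ± 0.11 for miR-99b-5p and -0.16 ± 0.078 for miR-100-5p (log2, n = 3 per group, limma adjusted p from 0.239 to 0.398).

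miR-100-5p was the 1 of 3 relatives without overlap, where 30.6% of all tested miRNAs had none, with levels of -2.06, -2.20 and -2.02 on young arrays 1 to 3 and -2.25, -2.28 and -2.23 on aged arrays 1 to 3. The median of the 3 differences was -0.16 against -0.083 over all tested miRNAs.

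The seed of miR-196 is found one base further along in the listed members of let-7, the family known for its rise as embryonic cells mature, except let-7e-5p, which shares 6 bases of it. Below, capitals mark the run of let-7a-5p, from base 3 to base 9, that equals bases 2 to 8 of miR-196a-5p.

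let-7a-5p: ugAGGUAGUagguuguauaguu

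Of the 9 members of the let-7 list (miR-98-5p included) all were tested, 0 passed the threshold by limma, and 0 had an unadjusted p under 0.05. Over all tested miRNAs the shares were 7.77% and 25.4%. With so few miRNAs the counts are not read as stability of let-7. Their median difference was 0.044 (from -0.14 to 0.19), beside -0.083 over all tested miRNAs.

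Marker lists of other cells in the organ were read beside the Hox cluster miRNAs. In bulk RNA, fewer cells of a type and less RNA per cell cannot be told apart. The summed scaled signal of a list adds the scaled signals of its probes, so the brightest miRNA of a list weighs most in it. As shares to set beside the counts of every list, 7.77% of the 193 tested miRNAs passed the threshold by limma. An unadjusted limma p under 0.05 was reached by 25.4% of them. The summed scaled signal of the erythroid list (4 miRNAs, 3 tested) was 8.40 to 9.42 in young and 6.39 to 7.20 in aged kidney, with a median difference of -0.56 and 0 past the threshold by limma (3 at an unadjusted p under 0.05, which 25.4% of all tested miRNAs reached). The leukocyte list (5 miRNAs, 4 tested) summed to 0.592 to 0.681 in young and 0.754 to 0.945 in aged kidney, with a median difference of 0.42 and 0 past the threshold by limma (2 at an unadjusted p under 0.05). The smooth muscle and stroma list (4 miRNAs, all tested) summed to 1.81 to 1.90 in young and 2.03 to 2.25 in aged kidney, with a median difference of 0.023, 1 past the threshold by limma and 4 at an unadjusted p under 0.05. Its members differed in sign. The smooth muscle miRNAs miR-143-3p and miR-145a-5p had differences of -0.27 ± 0.094 and -0.25 ± 0.095 (limma adjusted p of 0.12 and 0.149). The stromal miRNAs miR-199a-3p, the one past the threshold, and miR-214-3p had differences of 0.40 ± 0.086 and 0.30 ± 0.092 (limma adjusted p of 0.0391 and 0.0939). The kidney list (6 miRNAs) summed to 20.2 to 22.9 in young and 21.0 to 23.9 in aged kidney, with 0 past the threshold by limma (1 at an unadjusted p under 0.05) and a median difference of 0.059. The list for other organs (7 miRNAs) summed to 0.0768 to 0.106 in young and 0.134 to 0.151 in aged kidney, with 5 of the 7 not well above background on any array. The 1 of its miRNAs that was tested, miR-124-3p, passed the threshold by limma. It entered the test through the aged arrays alone, and all its young values were at the detection floor. Its pass is therefore not read as a result, and no fold is given. The part of these cells in the levels of the Hox cluster miRNAs was not tested.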

How the data were processed

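Per the file headers, spots were read by Agilent Feature Extraction 11.5.1.1 and the array design is based on mm9. The deposited intensity per spot was background-subtracted by that software, not scaled between arrays, and came with deposited flags for outlier, saturated and well-above-background spots (a score of 0 or 1). The authors also deposited a log2 table, which matched the log2 total signal that the software gives for each miRNA after subtraction of 1 number for each array (largest departure 1.02e-05 over 1268 features). Scale and direction are thus known, and the rule behind that number is not stated in the headers or labels. Array medians of this table ran from -10.10 to -9.20.

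Intensity was averaged over non-outlier spots of each of 3105 probes, scaled by the 75th percentile, within an array, of the 315 probes detected throughout, summed per miRNA, floored at -5.22 (log2) and log2-transformed. A probe was detected where over 50% of its kept spots were well above background. The 193 miRNAs detected on all arrays of a group were tested with limma 3.58.1 in R 4.3.3 (group as the single term). Pair ratios had an exact permutation test. Within groups, 83.2% (young) and 90.8% (aged) of the detected probes differed between arrays beyond spot noise. That was an analysis of variance per probe on scaled signal, with spots as the unit, at an unadjusted p under 0.05. A small error in the scaling of an array would also count there, and repeat hybridisations of 1 preparation could differ as much. No arrays were merged. The fit was tested on simulated data with independent noise for each miRNA and array, which does not cover deviations that the miRNAs of an array share. Normexp used the median spot signal, as the planned mean signal was not used here.

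The 4 miRNAs and the lists were chosen with earlier results of these data known. The named miRNAs are the 4, the further Hox cluster list, the miR-10 relatives and, per member, the 3 tested miRNAs with the highest Pearson correlation. The lists were further Hox cluster miRNAs, miR-10 relatives, let-7, kidney, erythroid, leukocyte, other organs, and smooth muscle and stroma; older names on the array were matched by synonym (miR-486-5p as miR-3107-5p). Alternatives covered scaling, background, filter, floor, outlier spots, probe summary, slide row, replicate block and each array left out.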

Additional observations from a re-analysis of the deposited data

How the results depend on the processing

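Of the 193 tested miRNAs 15 passed the threshold by limma (8 higher, 7 lower), and the count moved to 2 without scaling, 4 with normexp, 6 without a detection filter, 5 with slide row as a block and 3 with the replicate block. Leaving out 1 array gave 5 to 39: 6 without young array 1, 5 without young array 2, 8 without young array 3, 39 without aged array 1, 9 without aged array 2 and 23 without aged array 3. The split of higher against lower calls was 18 to 3 with the median over detected probes, 13 to 1 with quantile normalization and 10 to 0 in the authors' values. The Hox cluster miRNAs stayed outside the threshold in all 20 alternatives, of which the 2 by slide row rest on aged array 1 and bear on no stability. Differences turned positive when all probes set the 75th percentile (miR-10a-5p 0.32, miR-10b-5p 0.25, miR-196a-5p 0.38, miR-196b-5p 0.22), without scaling (0.10, 0.039, 0.17 and 0.010), with the median over detected probes (miR-10a-5p 0.043, miR-196a-5p 0.10), in the authors' values (miR-10a-5p 0.018, miR-196a-5p 0.080) and with quantile normalization (miR-196a-5p 0.083). Leaving out 1 array gave -0.16 to -0.052 for miR-10a-5p, -0.22 to -0.11 for miR-10b-5p, -0.093 to 0.048 for miR-196a-5p (0.023 without young array 3 and 0.048 without aged array 1) and -0.27 to -0.11 for miR-196b-5p. The scaling alternatives shift all miRNAs of an array together, except quantile normalization, which works on ranks. The cause of the turns with quantile normalization or with 1 array left out was not tested. The replicate numbers name the arrays and were not used to pair them in the main comparison. Deviations of same-numbered arrays correlated at 0.12, -0.58 and 0.31, and 1 of 6 arrays correlated best with its own number. With 3 arrays per group these values cannot decide whether the arrays are paired. With the replicate block the differences were as in the main comparison, -0.097, -0.16, -0.035 and -0.19, with limma adjusted p of 0.526, 0.307, 0.854 and 0.267. Signal over background limits the opposite arms, which lay at or near the detection limit.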
